A study of Mus musculus with 6 samples.

Results

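The p53 target genes described here are 31 mouse genes named as targets of the transcription factor p53, measured in cells that lack p53. Whether p53 acts directly on each in the mouse was not examined here. The genes were listed by name as p53 targets, by a rule that uses no measured value, and every probe whose annotated gene symbol was among them was taken. Of the 31 genes, 29 had a named probe (67 probes of 45281 on the array), and 23 had a probe above background on at least 3 of the 6 arrays, out of 8716 genes for which this held. RNA was measured on Illumina mouse BeadChips, single-colour arrays that carry several probes for many genes. The cells were mouse embryonic fibroblasts (MEFs) of background strain unknown per the labels, grown under standard conditions and carrying the genotype Trp53-/- Dnmt1-/- (3 arrays) or Trp53-/- Dnmt1+/+ (3 arrays), here called Dnmt1-/- and Dnmt1+/+ MEFs. Trp53 encodes p53 and Dnmt1 the maintenance DNA methyltransferase, and the study describes the mutant Dnmt1 allele, which is homozygous, as hypomorphic. Both groups share the loss of Trp53, so p53 itself was not there to act on these genes in either. Line and genotype cannot be told apart where each genotype is a single line, and the sources name no further lines on these arrays.

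In cells with p53, DNA damage and other stresses stabilize the protein, which binds response elements near its target genes and raises their transcription. The products stop the cell cycle, repair DNA, adjust metabolism or start apoptosis, and Mdm2 closes the loop by marking p53 for degradation. Loss of Dnmt1 in fibroblasts that have p53 is known to set off a p53 response and cell death, which is why hypomethylated fibroblast lines are commonly kept on a Trp53-null background. Most target genes keep a basal level without p53 that other transcription factors set.

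All levels below are normalized log2 intensities, on which a difference of 1 is a 2-fold change, and differences are Dnmt1-/- minus Dnmt1+/+. A gene is represented by its brightest tested probe, and is said to have risen or fallen where the limma p, adjusted over all 15795 tested probes, was under 0.05. Nothing in the labels says that replicates came from separate cultures, and the spread that the p-values rest on may therefore be technical. The Dnmt1 probe measured 8.16, 7.06 and 7.42 on the Dnmt1-/- arrays, against 9.79, 9.74 and 9.42 on the Dnmt1+/+ arrays, a 4.31-fold lower level in Dnmt1-/- MEFs (adjusted p = 0.0019), though where this probe sits relative to the altered part is not known here. Mean raw intensity was 396.6 on Dnmt1-/- array 1 and 217 to 259 on the other Dnmt1-/- arrays, against 326 to 357 on Dnmt1+/+ arrays, and 14699 to 16499 probes per array were above background. Of 13 fibroblast markers with a probe, 9 to 12 were above background on Dnmt1-/- arrays and 11 to 12 on Dnmt1+/+ arrays. Their summed normalized intensity was 18330 to 22680 in Dnmt1-/- MEFs and 19180 to 24770 in Dnmt1+/+ MEFs. Of the 12 tested, 0 rose, 1 fell and 11 did not pass, with a median difference of 0.01. The 1 that fell was Thy1, a fibroblast surface marker above background on 0 Dnmt1-/- and 3 Dnmt1+/+ arrays (at least 2.11-fold; adjusted p = 0.0032). It met the filter for testing only through the Dnmt1+/+ arrays. Of 9 blood and macrophage markers with a probe, 3 were above background on each Dnmt1-/- array and 1 on each Dnmt1+/+ array, and their summed normalized intensity was 448 to 538 in Dnmt1-/- MEFs and 288 to 351 in Dnmt1+/+ MEFs. Cd14 and Cd53 rose (adjusted p = 0.014 and 0.018), Csf1r differed by 0.41 without passing, and the defining markers Ptprc, Lyz2, Tyrobp and Adgre1 were above background on no array. Cd53 and Csf1r met the filter for testing only through the Dnmt1-/- arrays. Of 10 endothelial markers, 2 were above background on Dnmt1-/- arrays and 2 to 3 on Dnmt1+/+ arrays. Flt1 fell (3.99-fold; adjusted p = 0.0013) and Egfl7 did not pass. Of 10 epithelial markers, 2 to 3 were above background on Dnmt1-/- arrays and 1 to 2 on Dnmt1+/+ arrays. Krt14 rose and Krt19 fell (adjusted p = 0.013 and 0.0085), each tested only through its higher group, and Cldn7 did not pass. The part of these markers in the results below was not tested.

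RefSeq promoter windows (build GRCm38.p6), which run from 250 bases before a start site to 50 after it, were on hand for 22 of the 31 genes as 28 windows. No window was on hand for Ddb2, Perp, Pmaip1, Ptp4a3, Rrm2b, Tnfrsf10b, Trp53inp1, Xpc and Zmat3. The windows of the genes that rose or fell are shown because CpG dinucleotides, the sites that Dnmt1 keeps methylated, differ in number between them. The CpGs are in capitals and every sequence reads 5′ to 3′ on the gene's own strand.
Dcxr, chr11:120727235-120727534, minus strand: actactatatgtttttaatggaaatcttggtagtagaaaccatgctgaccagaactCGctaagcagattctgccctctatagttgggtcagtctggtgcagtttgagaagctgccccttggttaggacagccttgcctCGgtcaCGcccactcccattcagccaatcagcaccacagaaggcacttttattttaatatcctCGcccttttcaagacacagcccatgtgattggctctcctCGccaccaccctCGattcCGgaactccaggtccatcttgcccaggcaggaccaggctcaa
Sesn2, chr4:132510407-132510706, minus strand: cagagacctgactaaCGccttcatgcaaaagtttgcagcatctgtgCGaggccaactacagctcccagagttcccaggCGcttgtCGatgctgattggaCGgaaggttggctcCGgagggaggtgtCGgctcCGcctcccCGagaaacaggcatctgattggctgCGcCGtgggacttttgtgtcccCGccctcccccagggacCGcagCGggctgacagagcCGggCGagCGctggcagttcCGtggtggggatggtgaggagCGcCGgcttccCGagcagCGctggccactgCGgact
Ei24, chr9:36797285-36797584, minus strand: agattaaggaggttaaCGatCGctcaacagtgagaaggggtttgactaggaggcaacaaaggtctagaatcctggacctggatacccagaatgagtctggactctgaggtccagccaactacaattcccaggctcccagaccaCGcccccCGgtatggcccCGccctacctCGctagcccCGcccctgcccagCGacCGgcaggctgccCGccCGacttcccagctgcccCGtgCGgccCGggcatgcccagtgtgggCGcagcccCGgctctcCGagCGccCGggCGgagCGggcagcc
Polk, chr13:96542530-96542829, minus strand: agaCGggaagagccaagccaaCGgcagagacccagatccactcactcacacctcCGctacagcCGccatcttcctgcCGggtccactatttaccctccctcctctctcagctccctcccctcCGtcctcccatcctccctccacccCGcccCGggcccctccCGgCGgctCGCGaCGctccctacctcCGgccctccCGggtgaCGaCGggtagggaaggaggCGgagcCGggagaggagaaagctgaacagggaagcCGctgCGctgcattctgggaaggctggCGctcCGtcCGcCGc
The Dcxr window held 7 CpGs, the Ei24 window 21, the Sesn2 window 23 and the Polk window 25. The median was 22 over the windows of p53 target genes and 7 over all 32851 windows, of which 52.1% held at least 7 CpGs and 18.4% at least 25. A further Polk start site lies at chr13:96519138-96519437 and its window held 4. CpG methylation was not measured on these arrays.

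The response element of p53 is built from a 10-base unit, the p53 decamer, with purines at its start, pyrimidines at its end and a C and a G around a core of A or T. Searched by its full consensus, which reads the same on both strands, it was found in 11 of the 28 windows (39.3%, 10 genes), against 8.36% of all windows. The Aen windows overlap and hold the same match, which is counted in each. The genes were listed as p53 targets, so a higher share is no separate result. The window of the upstream Cdkn1a start site held 2 and is shown with the decamers in capitals.
Cdkn1a, chr17:29090729-29091028, plus strand: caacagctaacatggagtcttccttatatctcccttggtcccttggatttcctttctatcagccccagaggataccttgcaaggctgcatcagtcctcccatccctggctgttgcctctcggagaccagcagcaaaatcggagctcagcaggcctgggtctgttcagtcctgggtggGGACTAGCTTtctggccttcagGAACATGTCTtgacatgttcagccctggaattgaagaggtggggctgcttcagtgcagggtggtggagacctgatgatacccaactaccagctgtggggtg
The first of them began 73 bases and the second 51 bases before that start site, and the window of the other Cdkn1a start site held none. The Ei24 window printed above held GGGCATGCCC, which began 10 bases before the start site. The windows of Mdm2, Gadd45a, Ccng1, Ckap2, Bax and Aen each held a match, as did Sesn1 and Polk at 1 of their 2 start sites. A match is a run of letters for 1 such unit, not for a whole response element, and was not tested for binding.

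Of the 23 genes tested, 2 rose (8.70%) and 4 fell (17.4%) in Dnmt1-/- MEFs, and 17 did not pass the test. In RNA from whole cultures, fewer cells that express a gene and less RNA per cell cannot be told apart. Across all 8716 genes, 9.61% rose and 7.82% fell. The median difference was -0.02 over the p53 target genes and -0.05 over all genes, and the differences ran between -1.11 and 1.25. Values of the groups did not overlap in 8 of the 23 (34.8%), against 40.3% of all genes. The genes that rose were Ddb2, which recognizes UV damage in DNA, and Dcxr, a dicarbonyl and L-xylulose reductase. The genes that fell were Ptp4a3, a protein tyrosine phosphatase, Sesn2, a stress-induced inhibitor of mTORC1, the translesion DNA polymerase gene Polk and the endoplasmic reticulum protein gene Ei24. Members of the arrest, apoptosis and repair groups did not move together in 1 direction, as the plot of differences by role shows.

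**Figure D1:**
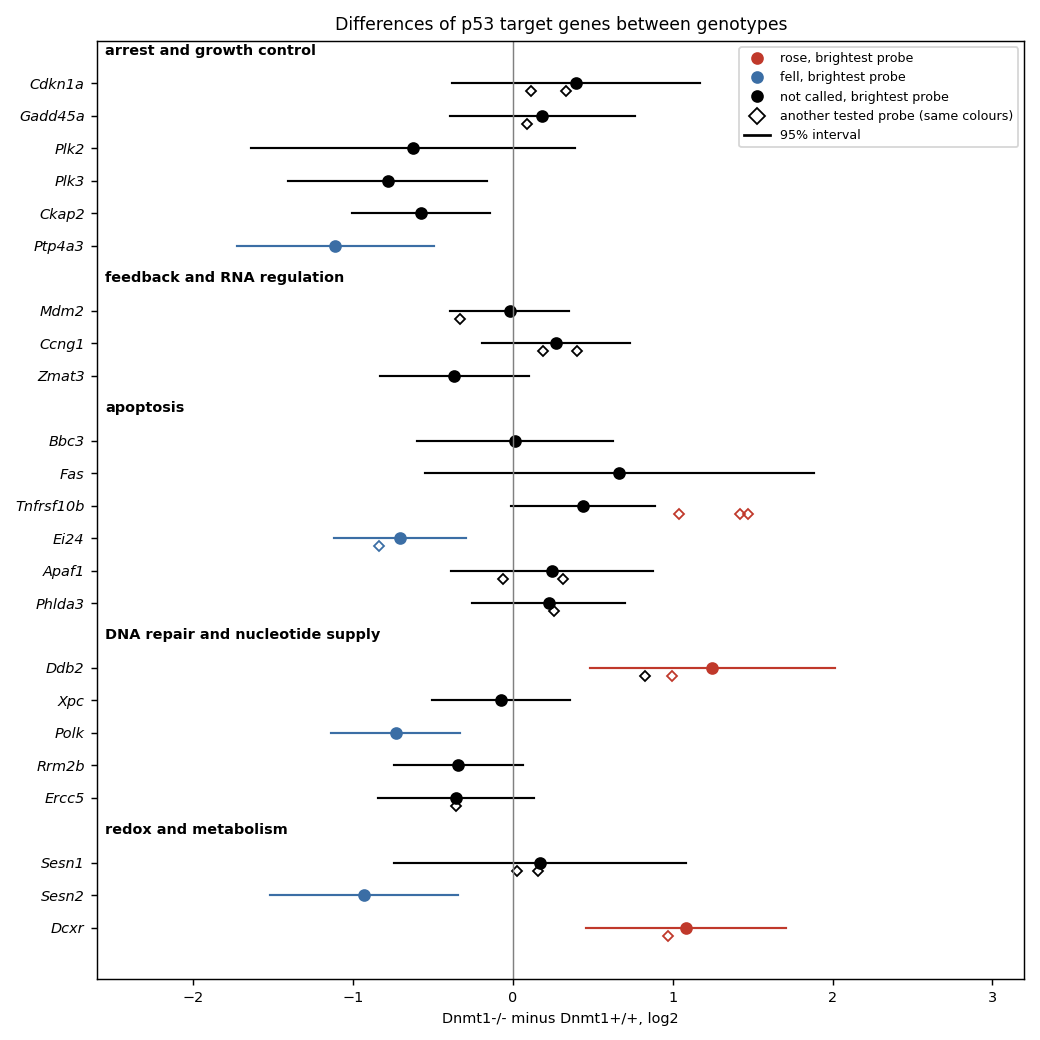
Difference in normalized log2 intensity, Dnmt1-/- minus Dnmt1+/+ MEFs, for the 23 p53 target genes tested, grouped by role. Filled circles are the brightest probe with its 95% limma interval, open diamonds the gene's other tested probes; 2 genes are coloured as risen and 4 as fallen, and 3 further probes of Tnfrsf10b lie to the right of its brightest.

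Among the 7 genes of arrest and growth control, 6 were tested, of which 0 rose and 1 fell, with a median difference of -0.60. Cdkn1a, the CDK inhibitor p21 and the best known arrest gene of the set, measured 8.33, 7.83 and 6.96 on the Dnmt1-/- arrays, against 7.42, 6.97 and 7.55 on the Dnmt1+/+ arrays. The groups overlapped, with Dnmt1-/- array 1 the highest and the difference 0.40 ± 0.34 (SE; 95% interval -0.38 to 1.17; adjusted p = 0.45). Its other tested probes differed by 0.33 and 0.11 and did not pass either. Gadd45a, a stress sensor that binds PCNA, measured 8.93, 8.77 and 8.54 on Dnmt1-/- arrays, against 8.22, 8.36 and 9.11 on Dnmt1+/+ arrays, with a difference of 0.18 (95% interval -0.40 to 0.76; adjusted p = 0.65). Dnmt1+/+ array 3 lay above every Dnmt1-/- array for this gene, and the other Dnmt1+/+ arrays lay below them.

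Ptp4a3, the growth-promoting phosphatase PRL-3, measured 4.50, 5.03 and 5.49 on the Dnmt1-/- arrays, against 6.0, 6.44 and 5.92 on the Dnmt1+/+ arrays. All Dnmt1-/- values were below all Dnmt1+/+ values, and only 1 of the 3 Dnmt1-/- values was above background. The probe met the filter for testing through the Dnmt1+/+ arrays, so that separation is no separate support for the fall. It fell by 1.11 on the log2 scale (SE 0.27; adjusted p = 0.027), a level at least 2.01-fold lower in Dnmt1-/- MEFs. That bound sets the Dnmt1-/- mean no lower than the dimmest signals above background. The gene did not pass without Dnmt1-/- array 2 (adjusted p = 0.052), Dnmt1+/+ array 1 (0.073) or Dnmt1+/+ array 2 (0.11), nor with median scaling (0.145). With no filter Ptp4a3 did not pass either (limma adjusted p = 0.104).

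The polo-like kinase genes Plk2 and Plk3, which act in stress checkpoints, and Ckap2, a spindle protein gene, had lower means in Dnmt1-/- MEFs without passing the test. Plk3 measured 6.5, 7.44 and 7.38 in Dnmt1-/- MEFs, against 7.68, 7.86 and 8.13 in Dnmt1+/+ MEFs, with a difference of -0.78 (95% interval -1.40 to -0.16; adjusted p = 0.086). Ckap2 measured 8.95, 9.13 and 8.97 in Dnmt1-/- MEFs, against 9.90, 9.32 and 9.56 in Dnmt1+/+ MEFs, with a difference of -0.57 (adjusted p = 0.074). The groups were apart for both genes. Plk2 measured 7.62, 9.64 and 8.93 in Dnmt1-/- MEFs, against 9.23, 9.54 and 9.30 in Dnmt1+/+ MEFs, where Dnmt1-/- array 1 alone made most of the difference of -0.62, which was -0.07 without it. Btg2, an antiproliferative gene, was above background on 0 of the 6 arrays.

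The 3 genes of feedback and RNA regulation were all tested and none passed (0 rose, 0 fell, 0 with groups apart), with limma adjusted p between 0.25 and 0.95 and 0 genes at an unadjusted p under 0.05. Mdm2, the ubiquitin ligase that degrades p53, measured 9.57, 9.95 and 9.66 on Dnmt1-/- arrays, against 9.77, 9.77 and 9.70 on Dnmt1+/+ arrays. Its difference of -0.02 had the narrowest 95% interval of the 23 genes, -0.39 to 0.35, so a change of 2-fold lay outside it. A second Mdm2 probe differed by -0.33, with its groups apart and an adjusted p of 0.17. Ccng1, cyclin G1, measured 9.43, 9.12 and 9.28 in Dnmt1-/- MEFs, against 8.73, 8.92 and 9.36 in Dnmt1+/+ MEFs, and its 3 probes differed by 0.27, 0.40 and 0.19. Zmat3, an RNA-binding regulator of splicing, differed by -0.37 (95% interval -0.83 to 0.10). The sign of all 3 Ccng1 differences was positive, and none passed.

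**Figure D2:**
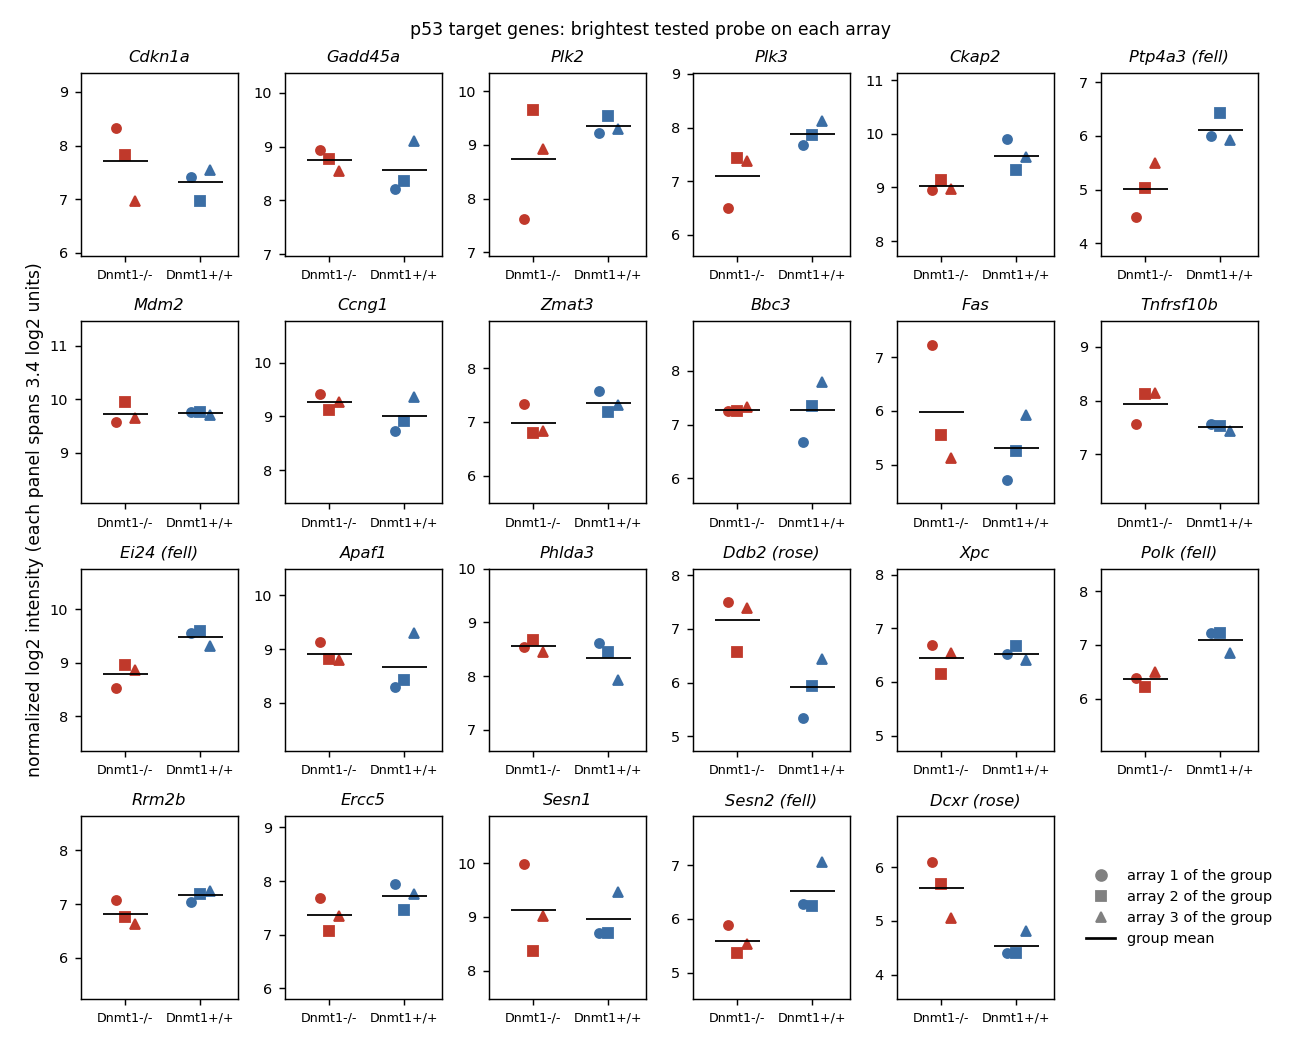
Normalized log2 intensity of the brightest tested probe of each of the 23 genes on every array, Dnmt1-/- left and Dnmt1+/+ right, with lines at the group means and the same 3.4-unit span in each panel. Groups are apart for Ddb2, Dcxr, Ptp4a3, Sesn2, Polk, Ei24, Plk3 and Ckap2, while single Dnmt1-/- arrays stand far from the others for Fas, Plk2 and Sesn1.

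The apoptosis group held 12 genes, of which 11 had a named probe and 6 were tested, and by the brightest probe 0 rose and 1 fell. Ei24, an endoplasmic reticulum protein with roles in autophagy, measured 8.52, 8.95 and 8.87 on the Dnmt1-/- arrays, against 9.56, 9.59 and 9.32 on the Dnmt1+/+ arrays. The groups did not overlap, and the gene fell by 0.71 (SE 0.18; adjusted p = 0.032), a 1.63-fold lower level in Dnmt1-/- MEFs. Its second probe measured 8.40, 8.30 and 7.97 in Dnmt1-/- MEFs, against 9.36, 8.91 and 8.92 in Dnmt1+/+ MEFs, and also fell, by 0.84 (adjusted p = 0.025). Both probes lay lower on every Dnmt1-/- array. The brightest probe did not pass without Dnmt1-/- array 1 (adjusted p = 0.052) or 3 (0.080), or without Dnmt1+/+ array 1 (0.11) or 2 (0.14).

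Tnfrsf10b, the TRAIL death receptor of the mouse, had a higher mean in Dnmt1-/- MEFs at all 4 tested probes. The probes differed in the size of the difference and in whether they passed. Its brightest probe, ILMN_2945095, measured 7.56, 8.13 and 8.15 on the Dnmt1-/- arrays, against 7.57, 7.52 and 7.43 on the Dnmt1+/+ arrays, with a difference of 0.44 (95% interval -0.01 to 0.89; adjusted p = 0.16). Dnmt1-/- array 1 lay within the Dnmt1+/+ values, and without it the difference was 0.63 and passed (adjusted p = 0.030). ILMN_2455181 measured 6.56, 6.60 and 6.95 in Dnmt1-/- MEFs, against 4.99, 5.50 and 5.21 in Dnmt1+/+ MEFs, and rose by 1.47 (adjusted p = 0.0019). ILMN_2460875 measured 6.46, 6.26 and 6.25 in Dnmt1-/- MEFs, against 4.96, 4.87 and 4.88 in Dnmt1+/+ MEFs, and rose by 1.42 (adjusted p = 0.00055). ILMN_1230700 measured 5.50, 5.58 and 5.62 in Dnmt1-/- MEFs, against 4.44, 4.78 and 4.35 in Dnmt1+/+ MEFs, and rose by 1.04 (adjusted p = 0.0054). All 3 dimmer probes were above background on every Dnmt1-/- array, against 2, 1 and 0 Dnmt1+/+ arrays, and as bounds they were at least 2.77-fold, 2.61-fold and 1.55-fold higher in Dnmt1-/- MEFs.

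All 3 also passed whichever single array was left out, with adjusted p up to 0.030. Those fits kept the probes chosen on all 6 arrays, and ILMN_1230700 was chosen only through the Dnmt1-/- arrays. ILMN_2455181 and ILMN_2460875 also met the filter through the Dnmt1-/- arrays, with 2 and 1 Dnmt1+/+ arrays above background. These fits therefore do not test the choice of probes. The remaining probe, ILMN_2454348, was above background on no array. The annotation pairs all 5 with the same transcript record, and where each lies on the transcript is not known here. Probes of a gene differed in call in 2 of the 12 members with more than 1 tested probe, the other being Ddb2, and a difference in call is not a test that the probes differ.

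**Figure D3:**
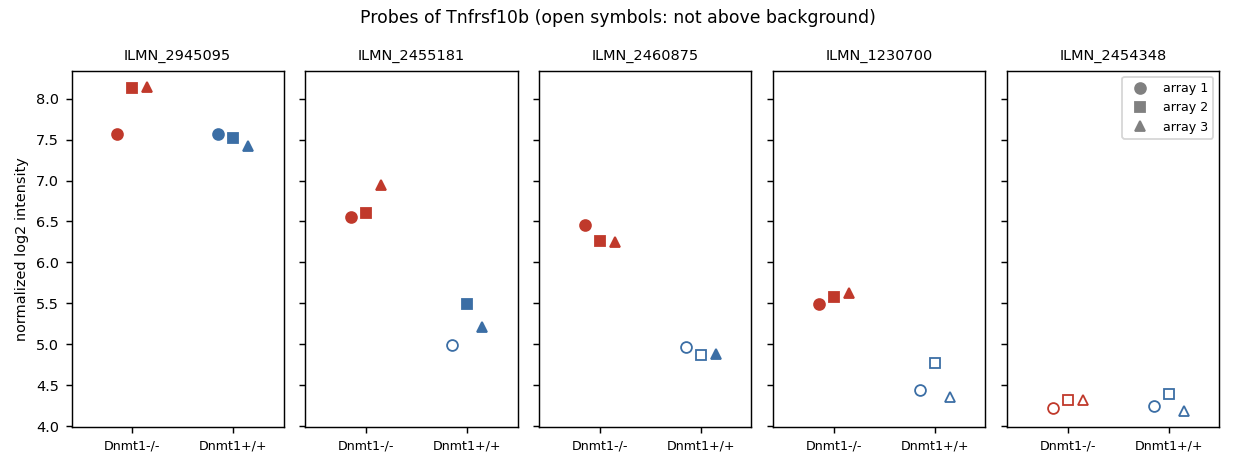
Normalized log2 intensity of the 5 probes annotated to Tnfrsf10b on each array, Dnmt1-/- left and Dnmt1+/+ right in each panel, with open symbols where a value was not above background. The 3 middle panels show Dnmt1-/- values wholly above Dnmt1+/+ values; in the first panel Dnmt1-/- array 1 lies among the Dnmt1+/+ arrays.

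Fas, the other death receptor tested, measured 7.23, 5.55 and 5.13 on the Dnmt1-/- arrays, against 4.72, 5.26 and 5.93 on the Dnmt1+/+ arrays. Its value on Dnmt1-/- array 1 stood alone, the difference was 0.67 ± 0.53 (SE; adjusted p = 0.42), and without that array it was 0.04. A second, dimmer Fas probe was above background on Dnmt1-/- array 1 (6.23) and on 1 Dnmt1+/+ array only. Bbc3, the BH3-only protein Puma, measured 7.25, 7.26 and 7.33 in Dnmt1-/- MEFs, against 6.67, 7.34 and 7.79 in Dnmt1+/+ MEFs, a difference of 0.01 (95% interval -0.60 to 0.62). The spread lay in the Dnmt1+/+ arrays. Apaf1, the scaffold of the apoptosome, differed by 0.25 (adjusted p = 0.57) and Phlda3, an inhibitor of Akt, by 0.22 (adjusted p = 0.49).

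The remaining apoptosis genes were too close to background to be tested. Aen, an apoptosis-enhancing nuclease, was above background on 0 Dnmt1-/- arrays and 2 Dnmt1+/+ arrays, and Pmaip1, the BH3-only protein Noxa, on 0 and 1. Trp53inp1, a stress-induced regulator of p53, measured 6.51, 4.57 and 4.68 in Dnmt1-/- MEFs, against 4.96, 4.53 and 5.44 in Dnmt1+/+ MEFs. It was above background on Dnmt1-/- array 1 and on 1 Dnmt1+/+ array. Perp, a desmosomal protein, and Eda2r, a receptor of the TNF receptor family, were above background on 0 arrays. Bax and Fdxr, a mitochondrial reductase of the metabolic group, had no probe named in the annotation used and are not analysed here.

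In the group of DNA repair and nucleotide supply all 5 genes were tested, and 1 rose and 1 fell. Ddb2, the damage-recognition subunit of nucleotide excision repair, measured 7.51, 6.58 and 7.39 on the Dnmt1-/- arrays, against 5.34, 5.95 and 6.44 on the Dnmt1+/+ arrays. The groups did not overlap, though the lowest Dnmt1-/- and the highest Dnmt1+/+ value lay close together. The gene rose by 1.25 (SE 0.33; adjusted p = 0.038), a 2.38-fold higher level in Dnmt1-/- MEFs. A second probe measured 6.02, 5.92 and 5.45 in Dnmt1-/- MEFs, against 4.73, 4.67 and 5.0 in Dnmt1+/+ MEFs, and rose at least 1.76-fold (difference 0.99; adjusted p = 0.013). Only 1 Dnmt1+/+ array was above background for this probe, so it met the filter through the Dnmt1-/- arrays. The remaining tested probe differed by 0.83 and did not pass (adjusted p = 0.11). The brightest probe did not pass without Dnmt1-/- array 1 (0.083) or 3 (0.126), or without Dnmt1+/+ array 1 (0.124) or 2 (0.111), nor with raw values normalized without background correction.

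Polk, the translesion polymerase kappa, measured 6.39, 6.22 and 6.49 in Dnmt1-/- MEFs, against 7.22, 7.23 and 6.85 in Dnmt1+/+ MEFs. The groups were apart, and the gene fell by 0.73 (SE 0.18; adjusted p = 0.026), a 1.66-fold lower level in Dnmt1-/- MEFs. It did not pass without Dnmt1-/- array 2 (0.065) or 3 (0.061), without Dnmt1+/+ array 1 (0.093) or 2 (0.12), or with median scaling (0.056). Xpc, which finds damage across the genome, measured 6.68, 6.14 and 6.54 in Dnmt1-/- MEFs, against 6.51, 6.67 and 6.40 in Dnmt1+/+ MEFs, a difference of -0.07 (95% interval -0.51 to 0.36). Xpc acts beside Ddb2 in the same repair pathway, and did not move with it in this comparison: the differences were 1.25 for Ddb2 and -0.07 for Xpc. Rrm2b, the p53-inducible ribonucleotide reductase subunit, differed by -0.34 (adjusted p = 0.22), and the endonuclease gene Ercc5 by -0.36 at both of its probes (adjusted p = 0.29 and 0.22).

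Of the 4 redox and metabolism genes 3 were tested, and 1 rose and 1 fell. Dcxr measured 6.10, 5.69 and 5.06 on the Dnmt1-/- arrays, against 4.39, 4.40 and 4.81 on the Dnmt1+/+ arrays, of which 0 were above background. It rose by 1.08 (SE 0.27; adjusted p = 0.031), a level at least 1.60-fold higher in Dnmt1-/- MEFs. A second Dcxr probe measured 6.02, 5.29 and 5.26 in Dnmt1-/- MEFs, against 4.50, 4.56 and 4.60 in Dnmt1+/+ MEFs, where 0 arrays were above background, and it rose at least 1.5-fold (difference 0.97; adjusted p = 0.023). Every Dnmt1-/- value of either probe exceeded every Dnmt1+/+ value. Both probes met the filter for testing only through the Dnmt1-/- arrays, so that separation is no separate support for the rise. With no filter Dcxr did not pass. The brightest probe did not pass without Dnmt1-/- array 1 (adjusted p = 0.053) or 2 (0.065), or without Dnmt1+/+ array 1 (0.11) or 2 (0.12).

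Sesn2, a leucine-sensing inhibitor of mTORC1, measured 5.88, 5.37 and 5.54 in Dnmt1-/- MEFs, against 6.28, 6.24 and 7.06 in Dnmt1+/+ MEFs. The groups were apart, and it fell by 0.93 (SE 0.26; adjusted p = 0.043), a 1.91-fold lower level in Dnmt1-/- MEFs. Dnmt1-/- arrays 2 and 3 lay close to their lowest signals above background, 5.07 and 5.05. Of its 3 probes only 1 was tested. ILMN_1219984 was above background on 0 Dnmt1-/- arrays and 1 Dnmt1+/+ array, and ILMN_1229465 on 0 arrays. Sesn2 passed without Dnmt1-/- array 1 (0.036) and in none of the other fits that left out an array, where adjusted p was between 0.075 and 0.124, nor with median scaling (0.123). Its relative Sesn1 measured 9.98, 8.36 and 9.02 in Dnmt1-/- MEFs, against 8.71, 8.70 and 9.46 in Dnmt1+/+ MEFs, with a difference of 0.17 (adjusted p = 0.80) that was -0.26 without Dnmt1-/- array 1. Sesn2 and Plk3 lie on chromosome 4, where the median difference over 539 genes was -0.46, the lowest of the autosomes and X, and where 24.5% of genes fell and 4.82% rose. Of the genes that rose, Dcxr lies on chromosome 11, where the median was 0.15, 14.6% of genes rose and 3.46% fell. Ddb2 lies on chromosome 2, where the median was -0.21, 6.39% rose and 10.4% fell. The part of the chromosome in any of these values was not tested.

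Of the 42 tested probes of these genes, 7 rose and 5 fell, against 8.48% that rose and 7.69% that fell among all tested probes. Counting a gene where any tested probe passed, 3 of the 23 rose (13%) and 4 fell (17.4%), against 10.3% and 9.19% of all genes. Of the 17 genes that did not pass by the brightest probe, 11 had a 95% interval that excluded a 2-fold change in either direction, and 2 excluded a 1.5-fold change. For Cdkn1a, Plk2, Plk3, Fas, Sesn1 and Ckap2 the interval reached past 2-fold on at least 1 side, so a change of that size was not excluded.

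Much of the spread within Dnmt1-/- MEFs came from array 1. It was the highest of the Dnmt1-/- arrays in 13 of the 23 genes (56.5%, against 40.7% of all genes). It was the lowest in 8 of the 23, against 3486 of all 8716 genes. Array 1 thus lay mostly at an end of its group across all genes as well, and this is no trait of the p53 target genes. Relative to the Dnmt1+/+ mean, Fas stood at 1.93 on this array, Ddb2 at 1.60, Dcxr at 1.57, Sesn1 at 1.03 and Cdkn1a at 1.02, while Plk2 stood at -1.73, Ptp4a3 at -1.62 and Plk3 at -1.39. Array 1 also had the brightest raw signal, and its median over 9 interferon-stimulated genes was 3.90 above the Dnmt1+/+ mean, against 1.46 and 1.22 on the other Dnmt1-/- arrays. The 9 are those tested of 18 with a probe. Some of them met the filter only through Dnmt1-/- arrays, so the size of these medians depends in part on that choice. Whether these differences between arrays bear on the p53 target genes was not tested. Dnmt1+/+ array 3 was the highest of its group in 12 genes (52.2%, against 37.2%), Gadd45a, Bbc3, Fas and Sesn2 among them.

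**Figure D4:**
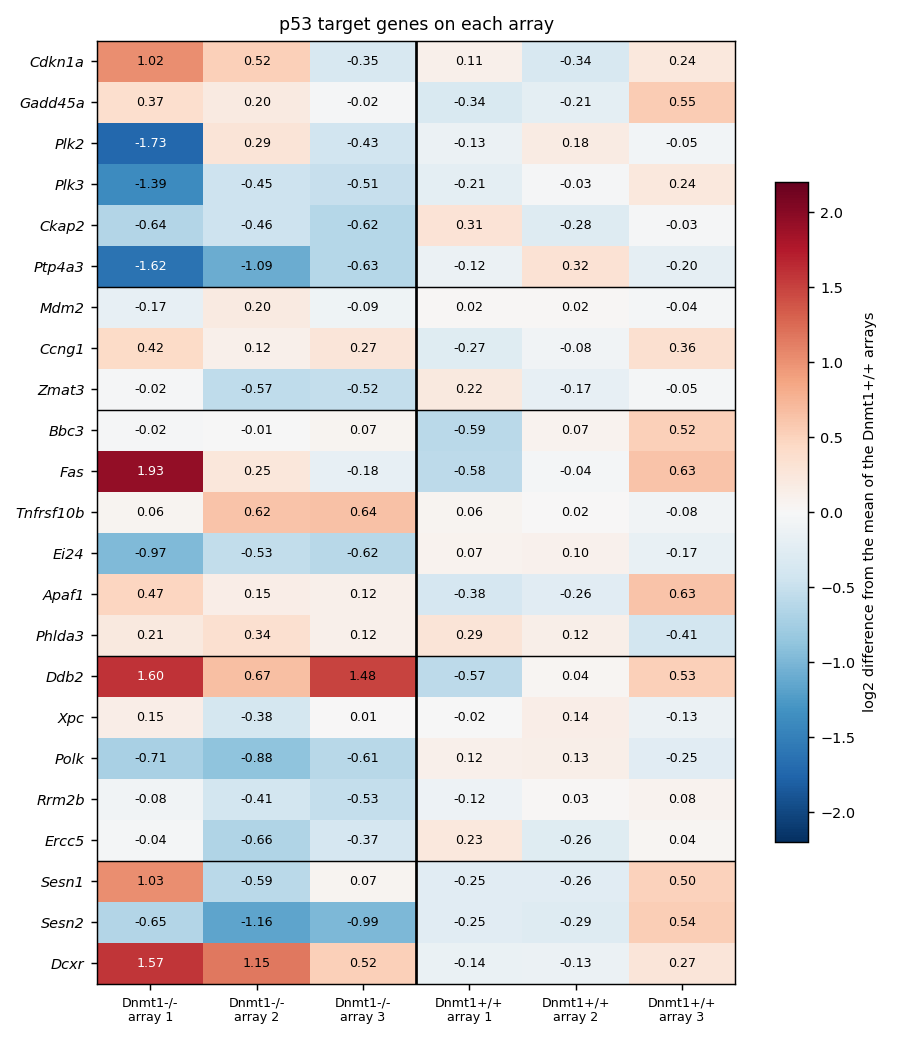
Difference of each array from the mean of the Dnmt1+/+ arrays, in log2, for the 23 genes in order of role, with Dnmt1-/- arrays left of the line and Dnmt1+/+ arrays right of it. Dnmt1-/- array 1 carries the most extreme values, from 1.93 for Fas to -1.73 for Plk2, and Dnmt1+/+ array 3 is warm for Fas, Apaf1, Gadd45a and Sesn2.

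Genes around the p53 pathway, here and for the downstream machinery below, were taken from lists for comparison. The lists were put together with earlier results of these data known, so shares over them are no independent comparison. Of 18 tested genes of the p53 family and its regulators, 0 rose and 0 fell by limma, with 6 at an unadjusted p under 0.05, and Trp63 and Trp73, the relatives of p53 that bind the same elements, were above background on at most 1 array and were not tested. Among 23 tested further p53 targets outside the 31, 3 rose (13%, against 9.61% of all genes) and 0 fell. Ndrg1, a stress-response gene, measured 9.46, 8.43 and 8.81 in Dnmt1-/- MEFs, against 6.36, 6.63 and 8.13 in Dnmt1+/+ MEFs (difference 1.86; adjusted p = 0.029). Steap3, a metalloreductase, was at least 1.99-fold higher in Dnmt1-/- MEFs (adjusted p = 0.0055), and Thbs1, thrombospondin, differed by 1.05 (adjusted p = 0.029). Groups were apart for all 3, which were named because they passed, so this is no separate support.

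The downstream machinery was read against all genes tested, of which 9.61% rose, 7.82% fell and 33.8% had an unadjusted p under 0.05. Of 15 tested CDK inhibitors and Rb pathway genes 0 rose and 0 fell by limma, with 1 (6.67%) at an unadjusted p under 0.05. Of 16 further nucleotide excision repair genes 0 rose and 0 fell, with 7 (43.8%) at an unadjusted p under 0.05. In the BCL2 family 1 of 10 rose and 1 fell. Bcl2, which restrains apoptosis, measured 5.37, 5.75 and 5.88 in Dnmt1-/- MEFs, against 6.63, 6.74 and 6.74 in Dnmt1+/+ MEFs, and fell by 1.04 (adjusted p = 0.0069). Bad, which promotes it, measured 9.38, 9.05 and 9.37 in Dnmt1-/- MEFs, against 8.45, 8.75 and 8.75 in Dnmt1+/+ MEFs, and rose by 0.62 (adjusted p = 0.047). All Dnmt1-/- arrays lay below all Dnmt1+/+ arrays for Bcl2 and above them for Bad.

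The calls for the p53 target genes depended on the arrays and the processing. Without Dnmt1+/+ array 1 or Dnmt1+/+ array 2, 0 of the 23 genes passed by limma, with 7 and 8 at an unadjusted p under 0.05, against 8 with all arrays. By its brightest probe no gene kept its call in all 6 fits that left out an array. The difference of each gene that passed kept its sign under all alternatives run. On the authors' processed values the differences were smaller, at 0.63 for Ddb2, 0.40 for Dcxr, -0.46 for Ptp4a3, -0.45 for Sesn2, -0.39 for Polk and -0.58 for Ei24, and those of Dcxr and Sesn2 did not pass (limma adjusted p = 0.066 and 0.061). Ei24 and Polk kept their call in 9 of 16 alternatives, Ddb2 in 8 of 16, Ptp4a3 in 7 of 15, Dcxr in 6 of 15 and Sesn2 in 3 of 16. These counts leave out the fit without genes of chromosome 4, which the grid of calls by processing also shows.

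**Figure D5:**
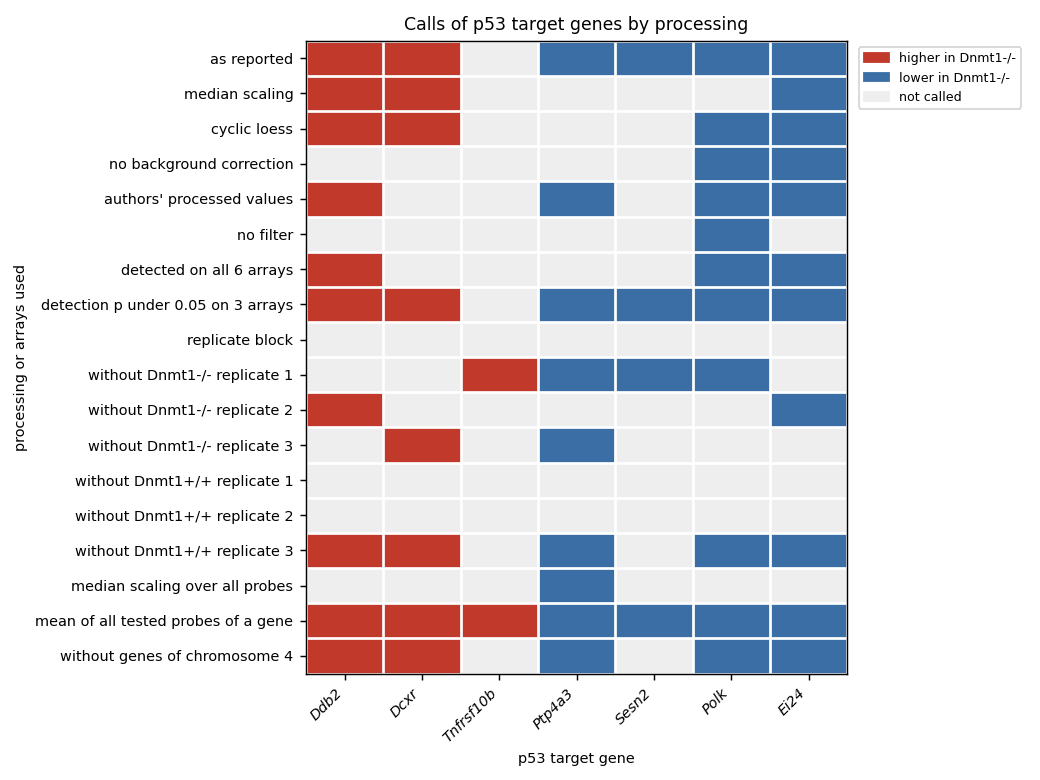
Calls of the 7 p53 target genes called in any of the fits shown (columns), each row a processing alternative or set of arrays, red where higher and blue where lower in Dnmt1-/- MEFs. Rows without Dnmt1+/+ replicate 1 or 2 and with the replicate block are empty, and no gene is red in one row and blue in another.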

How the data were processed

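RNA of 3 Dnmt1-/- and 3 Dnmt1+/+ MEF samples was hybridized to 1 array each. The authors deposited a table with a raw probe intensity (linear scale) and a detection p-value per probe and array, and processed intensity values made with lumi (version not given in the sources used here) by forced-positive background subtraction, variance-stabilizing transformation and robust spline normalization. Here the raw table was normalized by neqc (limma 3.58.1, R 4.3.3; background from detection p-values, offset 16, quantile normalization, log2). Probes with detection p under 0.01 on at least 3 of 6 arrays were tested by lmFit and eBayes, two-sided, with genotype as the sole term, and p-values were adjusted by Benjamini-Hochberg. Probes were named from the platform annotation, and 34885 probes carried 1 symbol, 18 several and 10378 none. Probes listed under an old synonym shared with another gene were not taken. A group with arrays not above background was held at the lowest detected signal of each array for folds given as at least. Such a bound concerns background alone and carries no sampling error. The steps were tested on simulated data. The rule for members uses no measured value, but members, role groups and gene lists were put together with earlier results of these data known. Named were all tested members, their probes and passing genes of the other lists. Trp53 is not analysed here. Alternatives covered normalization, background correction, the authors' values, the filter, the replicate block, the probe used and each array left out. Fits that left out an array kept the probe filter of all 6 arrays. The number of arrays limits the precision.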

Additional observations from a re-analysis of the deposited data

How the results depend on the processing

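No call of a p53 target gene by its brightest probe held under all alternatives. As reported, 2 rose and 4 fell, with 1339 probes of the whole array higher and 1214 lower. Leaving out each array in turn gave 0 to 2 p53 target genes that rose and 0 to 3 that fell, and 714 to 1323 probes higher and 453 to 1170 lower. With median scaling over probes above background on all arrays, 2 rose and 1 fell, with 686 probes lower, and with cyclic loess 2 fell. Without background correction 0 rose and 2 fell, with the authors' processed values 1 rose, and with no filter 0 rose and 1 fell. With probes above background on all 6 arrays 1 rose and 2 fell, with 719 probes higher and 663 lower. With the mean of all tested probes of a gene 3 rose, Tnfrsf10b among them, and 4 fell. Replicate numbers did not pair the arrays (correlations of deviations between same-numbered arrays were -0.23, 0.33 and -0.14). Across numbers, the correlation with Dnmt1+/+ array 3 was 0.43 for Dnmt1-/- array 1 and -0.44 for Dnmt1-/- array 2. With the replicate block 0 rose and 0 fell (8 at an unadjusted limma p under 0.05), with 691 probes lower. In alternatives chosen after seeing the data, median scaling over all probes, most of them not above background, gave 0 that rose and 1 that fell, with 445 probes higher and 656 lower, and moved the median of all tested probes by -0.27 on the log2 scale. Without genes of chromosome 4, 2 rose and 3 fell. With Dnmt1-/- array 1 as the sole Dnmt1-/- array, assumed to vary like the Dnmt1+/+ arrays, 3 were higher and 4 lower, and this fit is left out of the tallies of kept calls. The causes of these shifts were not tested. Genes near background, such as Dcxr and Ptp4a3, have folds given only as bounds.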
